A study of Mus musculus with 2 samples.

Results

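The STAT and SOCS family genes described here are *Stat2*, *Stat3*, *Stat4*, *Stat5a*, *Stat5b*, *Stat6*, *Socs1*, *Socs2* and *Socs3*. They were chosen by symbol and are 9 of the 31053 genes listed for both libraries. Single-cell RNA sequencing was performed on live CD45+ cells, that is leukocytes, sorted from *Braf*-mutant melanomas on day 4 after injection of tumor cells into 8-week-old C57BL/6 mice. The control hosts were untreated. The NK cell-depleted hosts received 200 µg of anti-NK1.1 (clone PK136) and 30 µg of anti-asialo GM1 per mouse on days 0 and 2. In both groups the tumor cells were Ptgs-/- by the sample titles and the series design, so both lacked the cyclooxygenase genes needed to make prostaglandins, although the genotype label of both samples reads wild type. No group with COX-competent tumors was part of these libraries. Several tumors of a group were pooled into 1 library, and both received a spike of parental melanoma cells.

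STAT proteins are transcription factors that wait in the cytoplasm. A cytokine bound to its receptor activates Janus kinases, which phosphorylate the receptor and then a STAT, and the STAT moves to the nucleus as a dimer and switches on its target genes. SOCS proteins are themselves made from STAT target genes and shut the same receptors down, which closes a negative feedback loop. Because STAT activity is set by phosphorylation, the transcript level of a *Stat* gene measures how much of its RNA was present and not how active the protein was.

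After the filter on cells (between 500 and 15000 UMIs, between 200 and 4000 genes, no more than 10% of UMIs mitochondrial) the control library held 5292 cells and 24810009 UMIs, and the NK cell-depleted library 4506 cells and 23245982 UMIs. A UMI (unique molecular identifier) is 1 counted transcript molecule. Cells were clustered without the 9 genes and named from marker genes. The depletion was visible in the names, with 543 NK-like cells in the control library (10.3%) and 1 in the NK cell-depleted library. *Gzma* and *Ncr1*, which NK cells express, had 8268 and 479 UMIs in the control library and 0 in the other. The remaining classes held, for control and then NK cell-depleted tumors, 3511 and 3192 monocyte/macrophage-like cells, 411 and 494 neutrophil-like cells, 344 and 368 conventional dendritic cell (DC)-like cells, 286 and 221 T-like cells, 69 and 53 migratory DC-like cells, 57 and 70 melanoma-like cells, 56 and 37 B-like cells and 15 and 70 eosinophil-like cells. Among kept cells, 5 barcodes occurred in both libraries. Levels are given as CPM, the UMIs of a gene per 1000000 UMIs of a class in a library. With 1 library per group no difference between the conditions could be tested, and every 95% interval below covers counting error only. CPM of different genes were not compared, since 3′ counts capture genes unequally.

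The genes lie on 4 chromosomes of the GRCm38 assembly (GENCODE vM21 annotation). *Stat4* lies on chromosome 1 (chr1:51987148-52107189, plus strand) and *Socs1* on chromosome 16 (chr16:10782240-10785536, minus strand). Chromosome 10 carries *Socs2* (chr10:95385362-95417180, minus strand), *Stat6* (chr10:127642986-127660957, plus strand) and *Stat2* (chr10:128270559-128292849, plus strand). On chromosome 11, *Stat5b* (chr11:100780731-100850724, minus strand), *Stat5a* (chr11:100859351-100885169, plus strand) and *Stat3* (chr11:100885098-100939540, minus strand) are neighbors, and *Socs3* lies at chr11:117966079-117970047 on the minus strand. *Stat5a* and *Stat5b* are 8627 bases apart, and the 3′ ends of *Stat5a* and *Stat3* overlap by 72 bases on opposite strands. The 3′ end of *Stat6* overlaps that of *Nab2* by 40 bases, also on opposite strands. *Gm28177* overlaps *Stat4* by 29929 bases on the same strand. Whether the counting used the strand is not given in the sources used here. Of the 451 windows of 50 bases in the last 500 bases of each gene's longest coding transcript, 0 occurred in another gene, except 1 window of *Stat4* that occurred in *Gm28177*. The closely related *Stat5a* and *Stat5b* could thus be counted apart at their 3′ ends.

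RefSeq promoters (GRCm38.p6) were matched for 8 of the 9 genes, with 11 start sites in all. *Socs2* had no entry. The 250 bases before each start site were searched on both strands for a pair of GAAA copies with 2 bases between them (on the other strand TTTC), the core of the element that the STAT2-containing interferon complex binds, and for TTCNNNGAA, the spaced palindrome that STAT dimers bind. The 3 promoters below carry these letters. A promoter of *Stat4* carried them too and is described below without its sequence. Capitals mark the matches, and each runs 5′ to 3′ on the strand of its gene, at chr10:128270248-128270497 (*Stat2*, plus), chr16:10785537-10785786 (*Socs1*, minus) and chr11:117969367-117969616 (*Socs3*, minus).

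Stat2: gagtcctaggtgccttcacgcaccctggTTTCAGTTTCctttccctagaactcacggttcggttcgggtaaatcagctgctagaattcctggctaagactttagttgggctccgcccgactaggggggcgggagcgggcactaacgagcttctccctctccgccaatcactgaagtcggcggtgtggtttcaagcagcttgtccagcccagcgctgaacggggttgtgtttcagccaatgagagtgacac

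Socs1: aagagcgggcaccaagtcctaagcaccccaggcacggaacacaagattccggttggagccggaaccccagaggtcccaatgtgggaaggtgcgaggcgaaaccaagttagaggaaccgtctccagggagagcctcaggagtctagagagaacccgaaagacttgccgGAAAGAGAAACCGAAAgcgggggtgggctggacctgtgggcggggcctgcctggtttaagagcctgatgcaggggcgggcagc

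Socs3: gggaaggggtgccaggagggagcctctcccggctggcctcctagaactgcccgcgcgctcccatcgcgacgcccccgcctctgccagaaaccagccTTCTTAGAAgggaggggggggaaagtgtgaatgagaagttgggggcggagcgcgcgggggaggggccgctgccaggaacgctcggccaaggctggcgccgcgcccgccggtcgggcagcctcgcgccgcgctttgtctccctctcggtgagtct

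The interferon element began 222 bases before the start of *Stat2*, and 2 overlapping copies began 83 and 77 bases before the start of *Socs1*. *Stat4* carried 1 copy 97 bases before the second of its start sites. *Socs3* carried TTCNNNGAA 154 bases before its start. Of 32851 promoters of the same length, 2.98% held the GAAA pair and 7.02% held TTCNNNGAA. A match is a run of letters and not a measured binding site. No match was found in the windows of *Stat3*, *Stat5a*, *Stat5b* and *Stat6*.

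The genes differed in their order of cell classes. A class was ranked on the libraries in which it had at least 20 cells and 100000 UMIs, so NK-like cells on the control library alone. Eosinophil-like cells fell short in both libraries (11799 and 47461 UMIs). B-like cells (111435 and 69258 UMIs) passed in the control library but were left out by name, so the orders below do not include them. A gene counted as high in a class when its CPM there was at least 2 times that of all other cells in each library. For NK-like cells the control library alone was used. Genes needed at least 50 UMIs over all cells of each library used. The interval of the ratio was not part of the rule, but it was clear of 1 for every member counted as high.

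**Figure D1:**
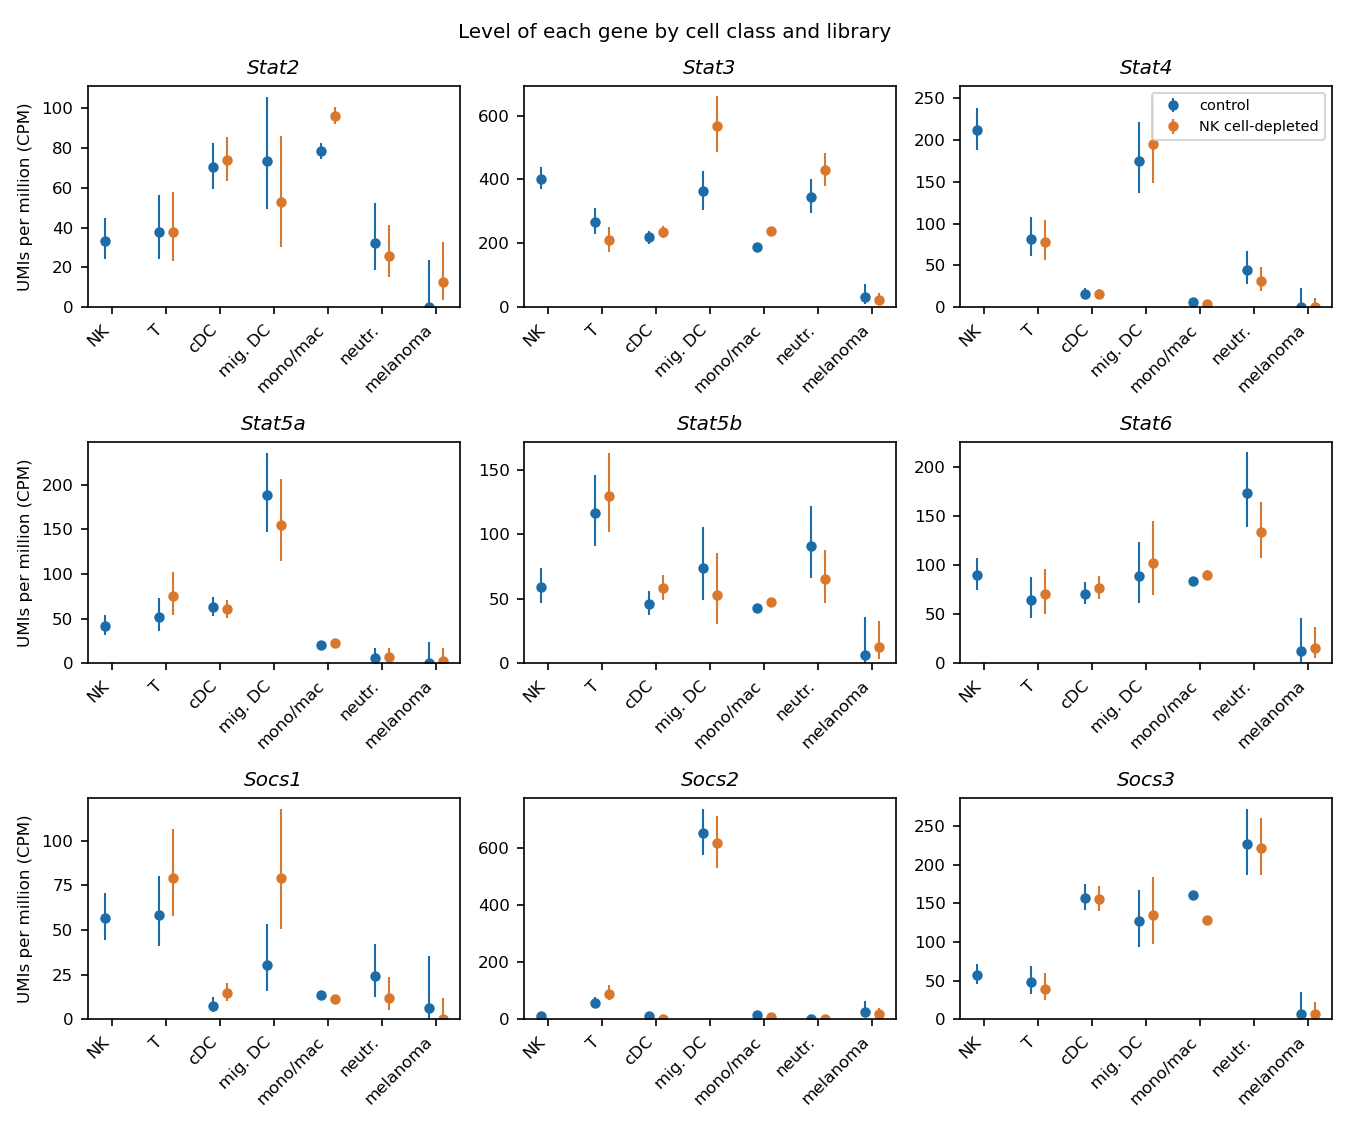
Level of each of the 9 genes (y axis, UMIs per 1000000, CPM, linear, a separate scale for each gene) by cell class (x axis) in the control (blue) and NK cell-depleted (orange) libraries; points are sums over the cells of a class and bars are exact Poisson 95% intervals. *Stat4* was high in NK-like and migratory DC-like cells, *Socs2* stood at 655 and 618 CPM in migratory DC-like cells, and melanoma-like cells had the lowest mean level of every gene but *Socs2*.

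*Stat4* carries the signal of IL-12 in lymphocytes. Control NK-like cells had 284 UMIs of it, or 211 CPM (188 to 237). Migratory DC-like cells had 175 CPM (control) and 195 CPM (NK cell-depleted), and the intervals overlapped that of NK-like cells. T-like cells followed with 81.8 and 77.6 CPM, neutrophil-like cells with 44.5 and 31.8 CPM, and conventional DC-like cells with 16.5 and 16.4 CPM. The step from migratory DC-like to T-like cells was clear of the counting intervals. In melanoma-like cells 0 UMIs were counted, which allows up to 19.2 CPM (control) and 9.53 CPM (NK cell-depleted).

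*Socs2* encodes an inhibitor induced through STAT5, best known for restraining growth hormone signaling. Migratory DC-like cells had 258 UMIs (control) and 187 UMIs (NK cell-depleted), or 655 and 618 CPM. These values were 42.4 times (36.1 to 49.8) and 69.5 times (56.7 to 85.2) those of all other cells of the same library. The 5 richest cells held 25.2% and 40.1% of the *Socs2* UMIs of the class. The mean of 636 CPM over the libraries was 446 CPM with cells named one by one. T-like cells were next with 56.6 and 90.2 CPM. In neutrophil-like cells 0 UMIs were counted in both libraries, which allows up to 6.07 and 4.55 CPM. NK-like cells had 11.2 CPM, and melanoma-like cells 25.6 and 19.1 CPM from 4 and 6 UMIs.

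*Stat5a* and *Stat5b* respond to the cytokines of the common gamma chain, to GM-CSF and to growth hormone. Despite their shared locus they differed in their order of classes. *Stat5a* was highest in migratory DC-like cells, at 188 CPM (control) and 155 CPM (NK cell-depleted), clear of the next class. T-like cells had 51.9 and 75.8 CPM of *Stat5a*, conventional DC-like cells 62.8 and 60.4 CPM, and neutrophil-like cells only 6.07 and 7.58 CPM, from 3 and 5 UMIs. *Stat5b* was highest in T-like cells, at 116 and 130 CPM, and neutrophil-like cells followed with 91.0 and 65.2 CPM. The intervals of both classes overlapped in the control library and were apart in the NK cell-depleted library. Across 16 sums of a class in a library, log2(CPM + 1) of the pair had a Pearson r of 0.42, a description over points that share libraries and depth. The level of *Stat5b* in T-like cells averaged 123 CPM over the libraries, and 91.3 CPM with finer clusters.

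*Stat3* transmits IL-6, IL-10 and G-CSF. It reached 363 and 568 CPM in migratory DC-like cells, 403 CPM in NK-like cells, and 346 and 429 CPM in neutrophil-like cells, and the intervals of these 3 classes overlapped in the control library, whereas migratory DC-like cells were clear of neutrophil-like cells in the NK cell-depleted library. T-like cells (267 and 209 CPM), conventional DC-like cells (219 and 235 CPM) and monocyte/macrophage-like cells (188 and 239 CPM) lay below. *Socs3*, the inhibitor of gp130 and G-CSF receptors, was highest in neutrophil-like cells, at 227 and 221 CPM. Conventional DC-like cells had 157 and 156 CPM of *Socs3*, monocyte/macrophage-like cells 160 and 129 CPM, and migratory DC-like cells 127 and 135 CPM. In lymphoid cells *Socs3* was low, at 57.3 CPM in NK-like cells and 48.8 and 39.7 CPM in T-like cells, so *Stat3* and *Socs3* did not share their order.

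*Socs1*, which blocks Janus kinases at the interferon and common gamma chain receptors, had its highest mean levels in T-like, NK-like and migratory DC-like cells, whose intervals overlapped. B-like cells had 0 and 2 UMIs of it. T-like cells had 58.2 CPM (control) and 79.4 CPM (NK cell-depleted), and NK-like cells 56.6 CPM. Migratory DC-like cells had 30.5 and 79.3 CPM from 12 and 24 UMIs. In the other myeloid classes the level of *Socs1* was at most 24.3 CPM. The mean of 68.8 CPM in T-like cells was 41.0 CPM with finer clusters.

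*Stat6* responds to IL-4 and IL-13. Its highest class was neutrophil-like cells with 174 and 133 CPM, and the ranked immune classes below them lay between 64.5 and 102 CPM. *Stat2*, the partner of interferon signaling, was the only member highest in monocyte/macrophage-like cells, at 78.5 and 96.1 CPM, though the interval of conventional DC-like cells (70.4 and 73.8 CPM) overlapped in the control library. T-like and NK-like cells had less than 40 CPM of *Stat2*.

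Counted by the 2-fold rule, NK-like cells were high in 3 of the 9 genes, *Stat4* (15.6 times the other cells, 13.3 to 18.4), *Socs1* (3.90 times) and *Stat3* (2.03 times), where 16.7% of 10669 tested genes met the rule. T-like cells were high in 4 (*Stat4*, *Stat5b*, *Socs1* and *Socs2*) against 11.2% of all genes. Migratory DC-like cells were high in 3 (*Stat4*, *Stat5a* and *Socs2*) against 6.62%, and conventional DC-like cells in 1 (*Stat5a*) against 3.94%. Monocyte/macrophage-like and neutrophil-like cells were high in 0 of 9, against 6.96% and 8.66% of all genes. These shares describe the same cells in which the classes were named.

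For each member, the 3 genes with the most similar profile over the 16 class sums were sought among 7727 genes. *Stat2* was most like *Commd4*, *Snx1* and *Ucp2*, *Stat3* like *Selplg*, *Samsn1* and *B2m*, and *Stat4* like *Clec2d*, *Marf1* and *Zc3h7a*. *Stat5a* was most like *Gpr183*, *Rftn1* and *Fyco1*, *Stat5b* like *Zzef1*, *Abca7* and *Adipor2*, and *Stat6* like *Cnnm4*, *Rdh11* and *Son*. *Socs1* was most like *Syt11*, *Mtor* and *Dnajc5*, *Socs2* like *Zfand6*, *Gfpt1* and *Csrp1*, and *Socs3* like *Gm26778*, *Myo9b* and *Etv6*. The first of each had r between 0.85 for *Socs2* and 0.97 for *Stat3*. No member was among the 3 most similar genes of another.

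The design next asks how the cells of a class differed when NK cells had been removed. Ratios are the control over the NK cell-depleted level, so a ratio above 1 means more of the transcript where NK cells were present. In monocyte/macrophage-like cells, by far the deepest class, 3 of the 9 genes were higher and 4 lower in the control library beyond counting error. Among the 10760 genes tested there, 20.2% were higher and 27.8% lower, so most members differed by little and their number beyond counting error is to be read against that share. By the stricter rule of at least 1.5-fold, 2 members were higher (*Stat4* and *Socs2*) and 0 lower, against 5.42% and 2.7% of all genes. The median log2 ratio of the 9 genes was −0.10 and that of all genes −0.02.

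**Figure D2:**
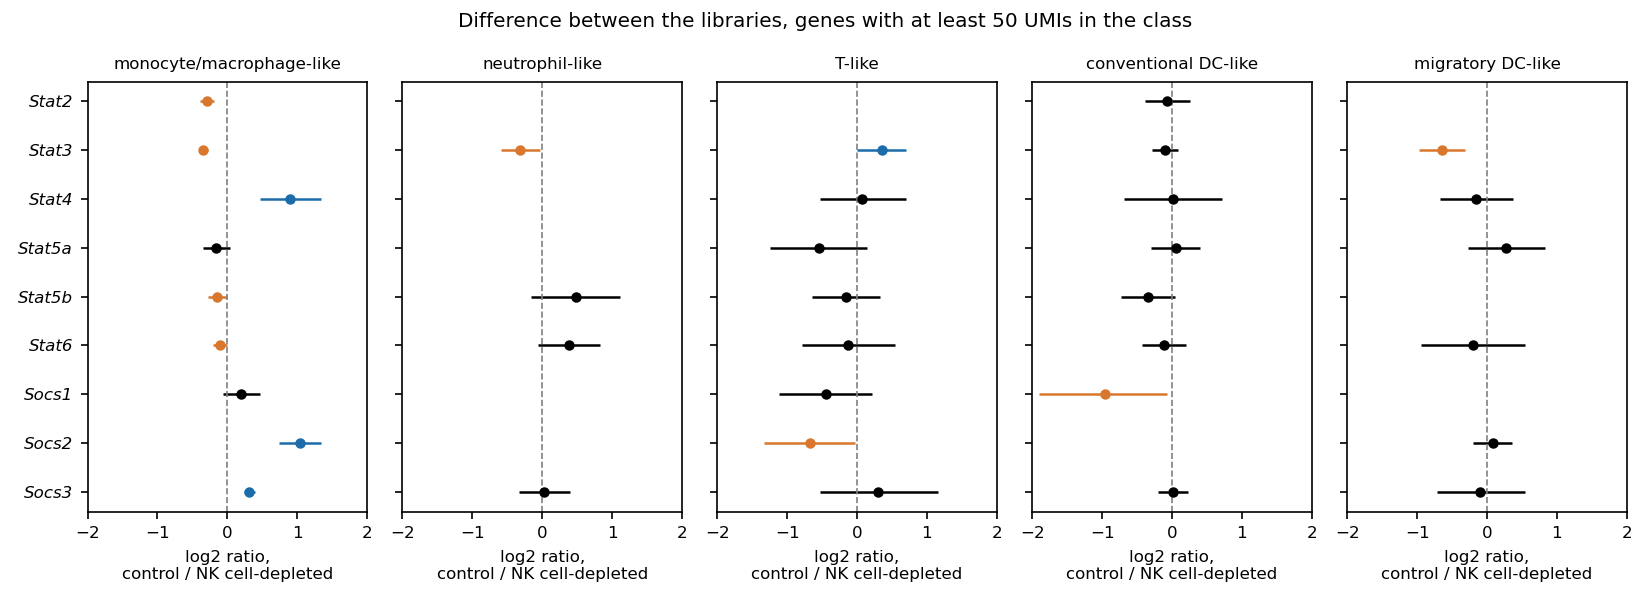
The log2 ratio of the control over the NK cell-depleted library (x axis) for each gene (y axis) in 5 cell classes, with 95% counting intervals, where the class held at least 50 UMIs of the gene; blue marks intervals above 0, orange below 0 and black those that include 0. *Socs2* and *Stat4* had the largest ratios in monocyte/macrophage-like cells, while *Stat3* was lower in the control library in 3 of the 5 classes and higher in T-like cells.

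*Socs2* had 297 UMIs in control and 140 in NK cell-depleted monocyte/macrophage-like cells, or 15.2 and 7.40 CPM, a ratio of 2.05 (1.67 to 2.53). Over the 9 clusters of the class that held at least 100 cells of each library, *Socs2* was higher in the control library in 8, beyond counting error in 2, and with every cluster given the same weight the ratio was 1.58. Cluster 7 (*Slc7a2*, *Dcstamp*) had the highest level, 32.6 and 23.1 CPM, and cluster 1 (*Ly6c2*, *Ms4a4c*) a ratio of 4.88 from 14 and 6 UMIs. Without the 5 richest cells of each library, cluster 12, 1 of the 2, was within counting error (1.95, 0.788 to 4.96). Cluster 1 then held 9 and 0 UMIs, and cluster 7 was beyond counting error (1.66, 1.10 to 2.57). Conventional DC-like cells showed the same direction, with 25 UMIs of *Socs2* (control) against 3 (NK cell-depleted) (ratio 9.38, 2.86 to 48.5), in numbers below the 50 UMIs required for a count. Without the 5 cells richest in *Socs2* in each library, 13 and 0 UMIs remained in these DC. T-like cells went the other way, with 36 and 50 UMIs and a ratio of 0.628 (0.397 to 0.983). In T-like cells, 1 of 8 measured members (*Stat3*) was higher and 1 (*Socs2*) lower, where 10.6% and 8.61% of all genes were. Both intervals included 1 without the 5 richest cells of each library (*Stat3* 1.28, 0.991 to 1.67, and *Socs2* 0.627, 0.350 to 1.11). The NK marker genes summed to 399.6 CPM in control and 137 CPM in NK cell-depleted T-like cells, and their part in these ratios was not tested.

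*Stat4* was low in monocyte/macrophage-like cells, with 133 UMIs (control) and 69 UMIs (NK cell-depleted), or 6.80 and 3.65 CPM, and a ratio of 1.86 (1.38 to 2.53). It was higher in the control library in 9 of 9 clusters, beyond counting error in 2, though some counts were as low as 2 and 1 UMIs (cluster 12). Without the 5 richest cells of each library, the ratio was below 1 in cluster 1 (0.785, 0.134 to 3.27) and cluster 4 (0.943, 0.260 to 2.88). It stayed above 1 in clusters 0, 2, 5, 6 and 7, and clusters 11 and 12 had 0 UMIs left. Since *Stat4* was high in NK-like cells, NK markers in the class bear on this value. The 13 NK marker genes summed to 79.1 CPM in control monocyte/macrophage-like cells, where 13 of them were detected, and to 20.4 CPM and 8 genes in the NK cell-depleted ones. The 34 control cells of the class with UMIs of at least 3 NK genes held 18.8% of its *Stat4* UMIs but were 0.968% of its cells. Among cells without any UMI of an NK marker gene, an alternative added after the values were seen, the log2 ratio of *Stat4* was 0.60 against 0.89 in all cells of the class. The part of NK cell RNA in the rest of the difference was not tested.

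*Socs3* had 3133 and 2434 UMIs in monocyte/macrophage-like cells, or 160 CPM (control) and 129 CPM (NK cell-depleted). The ratio of 1.25 (1.18 to 1.31) was shared by most clusters, since *Socs3* was higher in the control library in 7 of 9, beyond counting error in 6, and lower beyond counting error in 0. The largest of these ratios was in cluster 1, where 404 and 556 UMIs gave 204 and 134 CPM (1.52, 1.33 to 1.73). With equal cluster weights the ratio was 1.19. In neutrophil-like cells, where *Socs3* was highest, 112 and 146 UMIs gave 227 and 221 CPM and a ratio of 1.02 (0.793 to 1.32), and conventional DC-like cells had 1.01 (0.869 to 1.17).

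*Stat3* differed in the opposite direction from *Socs3* in the same cells. Monocyte/macrophage-like cells had 3677 and 4513 UMIs, or 188 CPM (control) and 239 CPM (NK cell-depleted), a ratio of 0.788 (0.755 to 0.824). In 8 of the 9 clusters *Stat3* was lower in the control library, beyond counting error in 3, and at equal weights the ratio was 0.872. Without the 5 richest cells of each library, cluster 0 was within counting error (0.907, 0.771 to 1.07) and cluster 6 beyond it (0.880, 0.777 to 0.996). Cluster 12 (*Retnla*, *Il6*) had 262 and 341 CPM and cluster 4 (*Ace*, *Chil3*) 333 and 348 CPM, the highest levels. Neutrophil-like cells had 171 and 283 UMIs of *Stat3*, or 346 and 429 CPM, and a ratio of 0.806 (0.663 to 0.978). NK marker genes summed to 224.5 and 3.03 CPM in these cells, and their part was not tested. *Stat3* was the 1 member of 4 measured there that was lower, with 0 higher, against 10.8% and 10.2% of all genes. Migratory DC-like cells had 143 and 172 UMIs, or 363 and 568 CPM, with a ratio of 0.639 (0.508 to 0.802), and *Stat3* was the 1 of 6 members lower there, where 14.2% of all genes were lower and 10.3% higher. A single NK cell-depleted migratory DC-like cell held 22 of these UMIs, and without the 5 richest cells of each library the ratio was 0.742 (0.569 to 0.968).

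*Stat2* showed a pooled difference that its clusters did not share. Over all monocyte/macrophage-like cells it had 1534 and 1817 UMIs, or 78.5 CPM (control) and 96.1 CPM (NK cell-depleted), a ratio of 0.817 (0.763 to 0.875). Within clusters, however, *Stat2* was higher in the control library in 8 of 9, beyond counting error in 3, and lower beyond counting error in 0. Cluster 4 had 159 and 110 CPM (ratio 1.44, 1.18 to 1.76), cluster 0 (*Gpnmb*, *Mmp13*) 43.7 and 26.3 CPM (1.66, 1.15 to 2.45) and cluster 1 194 and 170 CPM (1.14, 1.004 to 1.29). With equal cluster weights the mean levels were 96.3 and 83.0 CPM and the ratio 1.16, so the direction turned.

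**Figure D3:**
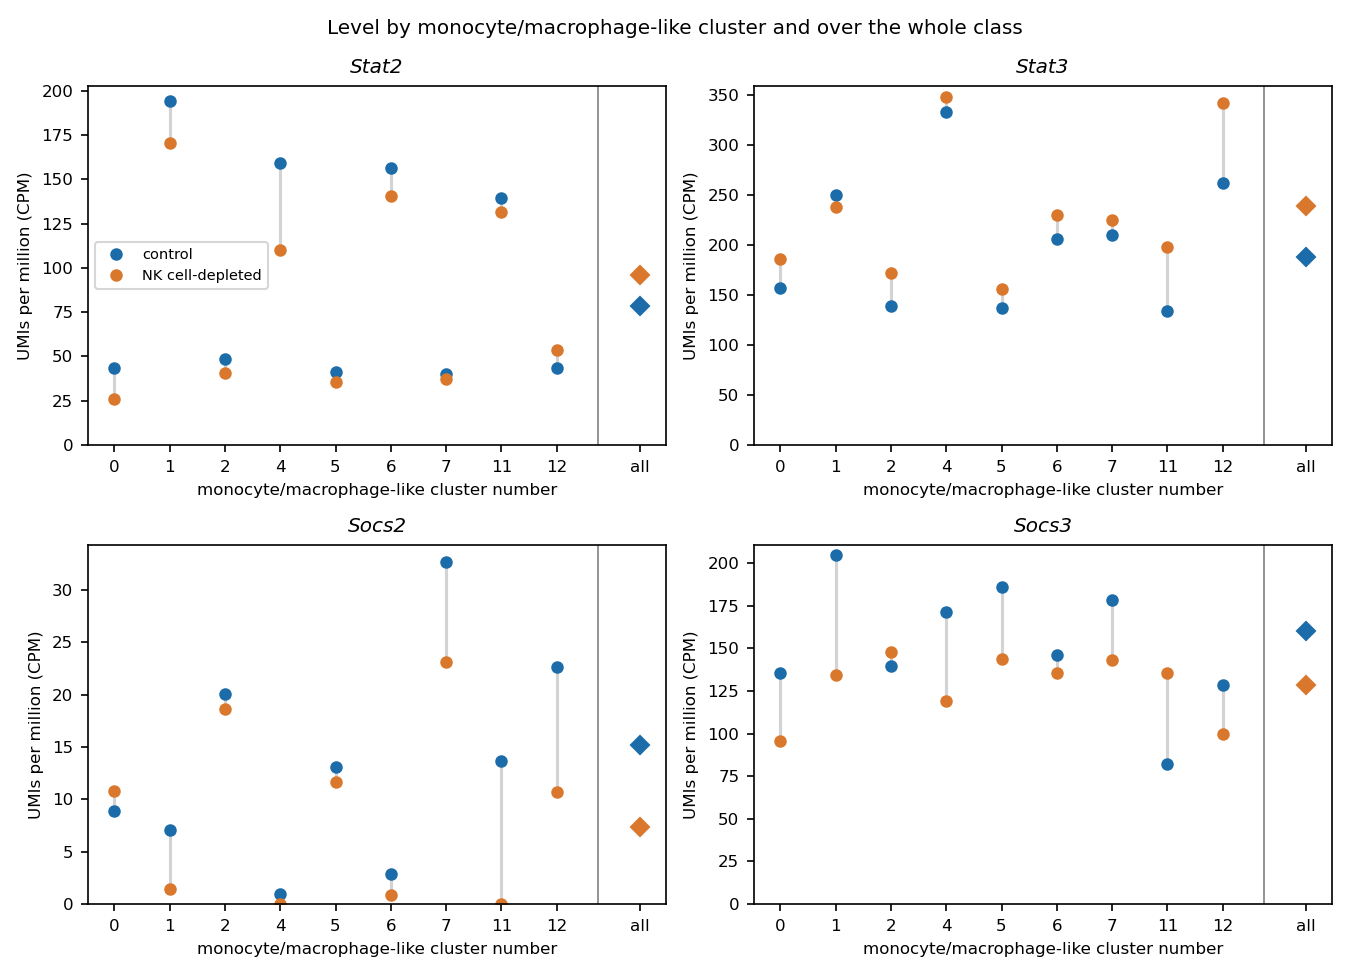
Levels (y axis, CPM, linear) of *Stat2*, *Stat3*, *Socs2* and *Socs3* in 9 monocyte/macrophage-like clusters (x axis, cluster number) and, as diamonds, over the whole class, in the control (blue) and NK cell-depleted (orange) libraries; grey lines join both values of a cluster. *Stat2* was higher in the control library in 8 of 9 clusters but lower over the whole class.

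The clusters differed in weight. The 4 clusters in which *Stat2* stood at 100 CPM or more in both libraries (1, 4, 6 and 11) held 1155 of 3511 control cells (32.9%) and 1826 of 3192 NK cell-depleted cells (57.2%). They contributed 60.4% of the *Stat2* UMIs of the class (control) and 81.9% (NK cell-depleted). Their leading genes were *Ly6c2* and *Ms4a4c* (cluster 1), *Ace* and *Chil3* (4), *Ccl8* and *Gas6* (6), and *Ifi211* and *Fcgr4* (11). In the other 5 clusters *Stat2* lay between 26.3 and 53.6 CPM, and the lowest level in the 4 clusters was 110 CPM. The summed level of 88 interferon-induced genes, members left out, ran from 9312 to 31591 CPM over the same clusters. It was higher in the control library in 8 of 9, though cluster 12 had 12796 and 12793 CPM. Abundant genes weigh most in such a sum. At equal cluster weights *B2m* had 3077 and 3630 CPM, *H2-K1* 1907 and 2123 CPM, and *Ifi27l2a* 1742 and 1302 CPM. On the log2 scale *Stat2* and the summed level of the list had a Pearson r of 0.98 over 18 cluster-by-library points, which share libraries and depth. The same r was 0.67 for *Stat5a*, 0.64 for *Stat5b*, between 0.10 and 0.32 for *Stat3*, *Stat4*, *Socs1* and *Socs3*, −0.01 for *Stat6* and −0.75 for *Socs2*.

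**Figure D4:**
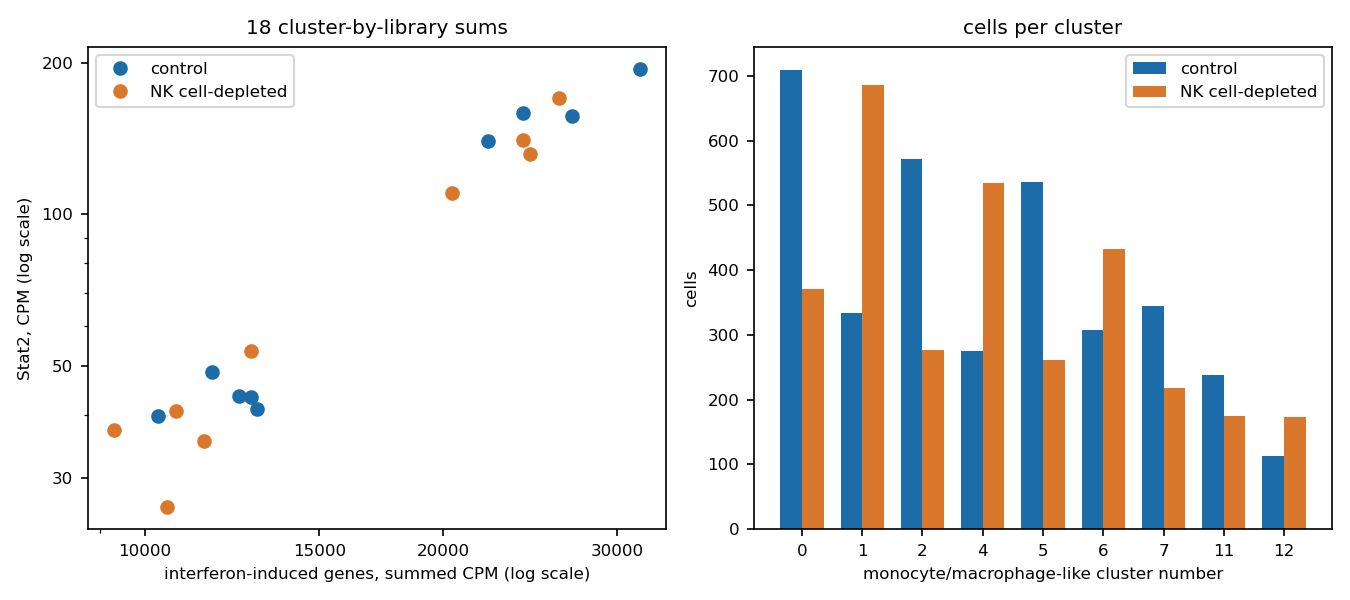
Left, *Stat2* (y axis, CPM, log scale) against the summed level of 88 interferon-induced genes (x axis, CPM, log scale) in 9 monocyte/macrophage-like clusters of the control (blue) and NK cell-depleted (orange) libraries, where the 8 sums of clusters 1, 4, 6 and 11 lie apart at the upper right. Right, the cells of each cluster, where clusters 1, 4, 6 and 12 held more NK cell-depleted than control cells and clusters 0, 2, 5, 7 and 11 fewer.

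The remaining members differed little between the libraries in monocyte/macrophage-like cells. *Stat5a* had 20.9 and 23.2 CPM (ratio 0.899, 0.784 to 1.03), within counting error. *Stat5b* had 43.0 and 47.4 CPM (0.908, 0.826 to 0.999) and *Stat6* 84.2 and 90.2 CPM (0.933, 0.872 to 0.999), both just beyond it. Without the 5 richest cells of each library, *Stat6* was within counting error (0.935, 0.873 to 1.001) and *Stat5b* still just beyond it (0.908, 0.825 to 0.9997). At equal cluster weights *Stat5a* and *Stat5b* stood at 1.12 and 1.02, above 1, and *Stat6* at 0.922. *Stat6* was lower in the control library in 7 of 9 clusters, beyond counting error in 2 (clusters 2 and 6). Without the 5 richest cells of each library, cluster 2 was within counting error (0.859, 0.689 to 1.08) and cluster 6 beyond it (0.765, 0.620 to 0.940). In neutrophil-like cells *Stat5b* (1.40, 0.898 to 2.17) and *Stat6* (1.30, 0.957 to 1.78) had ratios above 1 within counting error.

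*Socs1* was even over the whole monocyte/macrophage-like class, with 262 and 220 UMIs, 13.4 and 11.6 CPM and a ratio of 1.15 (0.959 to 1.38), but 2 clusters departed in opposite directions. Cluster 4 had 32 UMIs (control) and 15 UMIs (NK cell-depleted), or 30.1 and 6.24 CPM (4.83, 2.54 to 9.60). Without the 5 richest cells of each library, the ratio in cluster 4 was 4.53 (1.93 to 11.4). Cluster 0 had 25 and 26 UMIs, or 9.25 and 17.5 CPM (0.528, 0.292 to 0.951), which was 0.676 (0.305 to 1.53) without those cells. In conventional DC-like cells *Socs1* had 16 and 35 UMIs and a ratio of 0.515 (0.266 to 0.955), the 1 member of 8 measured there that was lower, with 0 higher, against 15% and 10.3% of all genes. A single NK cell-depleted cell held 20 of the 35 UMIs, and without the 5 richest cells the ratio was 0.921 (0.337 to 2.45).

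Around the members, the other genes of the pathway were counted in monocyte/macrophage-like cells by the 1.5-fold rule. Of all genes 5.42% were higher and 2.7% lower by it, shares that apply to every 1.5-fold count below. Of the 4 Janus kinases 1 was lower, *Tyk2*, which serves interferon and IL-12 receptors, with 33.8 and 51.6 CPM (0.655, 0.593 to 0.724). *Jak1* (214 and 242 CPM), *Jak2* (43.6 and 43.4 CPM) and *Jak3* (19.0 and 19.9 CPM) were within 1.5-fold. Of 5 other genes of the CIS and SOCS family 0 passed it, and *Cish*, a STAT5-induced inhibitor, had 26.4 and 19.5 CPM (1.35, 1.18 to 1.55). *Cish* was higher in the control library also in conventional DC-like cells, with 87 and 50 UMIs (1.96, 1.37 to 2.83), and in neutrophil-like cells, with 42 and 32 UMIs (1.75, 1.08 to 2.87). In T-like cells *Cish* had 190 and 184 CPM.

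Receptor genes were mostly within 1.5-fold. *Ifngr1*, a chain of the receptor for IFN-γ, had 265 and 342 CPM in monocyte/macrophage-like cells (0.773, 0.745 to 0.802) and the opposite direction in T-like cells, with 631 and 469 CPM (1.34, 1.15 to 1.58). Control NK-like cells had 883 CPM of *Ifngr1*. NK marker genes summed to 399.6 and 137 CPM in the T-like cells, and their part in this ratio was not tested. *Ifngr2* had 134 and 125 CPM in monocyte/macrophage-like cells. Of 6 measured gp130 and IL-10 family receptors, 6 were lower beyond counting error (27.8% of all genes were) and 0 by 1.5-fold, among them *Il6ra* (184 and 237 CPM), *Il6st* (52.4 and 64.1 CPM) and *Il10ra* (129 and 138 CPM). At equal cluster weights 4 of the 6 had ratios below 1 and 2 above, with 0.929 for *Il6ra*, 0.817 for *Il6st* and 1.02 for *Il10ra*. *Csf2rb*, the shared chain of the receptors for GM-CSF, IL-3 and IL-5, had 247 and 197 CPM (ratio 1.25) and was also higher in conventional DC-like cells (1.43, 1.27 to 1.61). *Il4ra* had 170 and 145 CPM. Of 12 measured receptors of the common gamma, common beta and IL-4 families, 2 were higher by 1.5-fold and 1 lower. They were *Il2rb*, with 161 and 4 UMIs, *Il7r*, with 105 and 68.0 CPM, and *Il15ra*, with 4.91 and 8.41 CPM. *Il2rb* is also an NK cell gene, and the NK marker sums given for *Stat4* hold for it too. At equal cluster weights *Il7r* had a ratio of 0.976, *Il15ra* 0.905 and *Il2rb* 40.6.

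Of the 8 measured cytokine ligands 3 were lower in the control library by 1.5-fold and 0 higher (2.7% and 5.42% of all genes were). A further 2 were higher by less. *Lif* had 2.87 and 7.56 CPM (0.379, 0.273 to 0.519), *Il10* 24.6 and 46.9 CPM (0.524, 0.468 to 0.586) and *Il6* 23.8 and 36.7 CPM (0.650, 0.576 to 0.732). At equal cluster weights their ratios were 0.485, 0.778 and 0.852. *Osm*, like these 3 a cytokine that can act through STAT3, had 222 and 195 CPM and a ratio of 1.14 (1.09 to 1.19). It is named here although it lies outside the rule for named genes, and was chosen after its values were seen.

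Genes known as STAT targets were counted as well. Of 19 listed STAT3 targets, members left out, 13 were lower and 4 higher in control monocyte/macrophage-like cells beyond counting error, where 27.8% and 20.2% of all genes were, with a median log2 ratio of −0.26. At equal cluster weights 14 had ratios below 1 and 5 above. By 1.5-fold, *Lrg1* (3.43 and 7.09 CPM) and *Junb* (1712 and 2595 CPM) were lower and *Timp1* (11.3 and 6.45 CPM) higher. Of all genes 5.42% were higher and 2.7% lower by 1.5-fold, which holds for the STAT5, STAT6 and STAT4 counts below too. A list of 19 immediate early and heat shock genes, which tissue dissociation can induce, had 15 lower and 1 higher against the same shares, also with a median of −0.26, and shares *Fos*, *Junb* and *Zfp36* with the STAT3 list. *Nr4a1* (436 and 882 CPM) and *Dusp1* (2607 and 4008 CPM) were among them. The part of dissociation in the level of *Stat3* was not tested. Of 9 measured STAT5 targets 2 were higher by 1.5-fold, *Il2rb* and the cyclin *Ccnd2* (120 and 76.7 CPM), and 0 lower. Of 16 STAT6 targets 3 were higher, among them *Arg1* (1102 and 566 CPM) and *Ccl17* (29.4 and 16.6 CPM), and 3 lower, among them *Chil3* (116 and 403 CPM) and *Ccl24* (23.5 and 47.9 CPM). At equal cluster weights *Arg1* and *Ccl17* had ratios of 1.19 and 1.13. Of 6 measured STAT4 targets 3 were higher, *Il18r1* (2.15 and 0.582 CPM), *Il18rap* (13.1 and 8.09 CPM) and the NK marker *Prf1* (4.60 and 0.106 CPM). The NK marker sums given for *Stat4* hold for the same cells, and the part of NK cell RNA in these values was not tested.

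Of 86 measured interferon-induced genes 30 were higher and 34 lower in the control library over the whole monocyte/macrophage-like class (20.2% and 27.8% of all genes were). By 1.5-fold 10 were higher and 1 lower (5.42% and 2.7% of all genes were). The median log2 ratio of the list was −0.02. The largest ratios belonged to *Serpina3g* (5.22 and 1.06 CPM), *Cxcl9* (17.8 and 4.12 CPM), *Iigp1* (20.3 and 5.39 CPM) and *Gbp8* (17.2 and 6.77 CPM). With every cluster given the same weight 80 of the 86 genes had ratios above 1 and 6 below, with a median of 1.33, and *Stat2* had a ratio of 1.16. In T-like cells 23 of 49 measured genes of the list were higher and 2 lower (10.6% and 8.61% of all genes were), and in neutrophil-like cells 19 of 51 were higher and 2 lower (10.2% and 10.8%). Conventional DC-like cells had 13 of 72 higher and 13 lower (10.3% and 15%), so the list did not lean to the control library there. *Stat2* itself had 24 and 21 UMIs in T-like cells and 16 and 17 in neutrophil-like cells, ratios of 0.997 (0.532 to 1.88) and 1.26 (0.594 to 2.64), and a difference was not detectable at this depth.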

How the data were processed

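The authors deposited, for each of both libraries, a matrix of UMI counts per gene and cell from the Chromium Single Cell 3′ v3 kit, and the file headers name Cell Ranger 3.0.2 (the methods give a later release). The submitters' processing notes name mm10, bcl2fastq and Cell Ranger. Each library came from 16000 loaded cells, amplified over 11 cDNA and 14 index PCR cycles. A deposited table of log2(CPM + 1) values was not used. The authors' own filter (stated in the report) was applied to 6115 and 5536 called cells.

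The 9 genes and all gene lists were chosen with earlier results of these data known. Cells were clustered (log2(CPM + 1), 2000 variable genes, 15 principal components, 20 neighbours, Leiden at resolution 1; scanpy 1.11.5, leidenalg 0.10.2) without 210 member, pathway and interferon genes, and the 20 clusters were named "X-like" from marker lists. Since these names were rebuilt here, they may account for differences from the published classes. Monocyte/macrophage-like cells came from 10 clusters (1 of them, cluster 2, with 1 of its markers among its 50 leading genes) and conventional DC-like cells from 2. Scrublet called 0 and 3 doublets, too few for this loading, and was not used. Alternatives instead left out cells with markers of a second class.

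UMIs were summed per class and library. Levels have exact Poisson intervals, and ratios intervals from the exact conditional binomial distribution. A ratio counted as beyond counting error when its interval excluded 1. Only genes that reached 50 UMIs, both libraries summed, entered the counts of ratios between the libraries. The 2-fold rule asked for 50 UMIs in each library used. Log2 ratios have 0.5 UMI added to each sum. UMIs of 1 cell are not independent, and a count of 0 allows 3 counts. Intervals were tested on simulated sums drawn with counting error only. That test could not show how they behave when UMIs of 1 cell are not independent or when libraries differ. From the pathway lists, genes past 1.5-fold in monocyte/macrophage-like cells were named, at most 4 per list, with 12 fixed genes. The alternatives are in the closing section.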

Additional observations from a re-analysis of the deposited data

Results flagged for a closer look

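Melanoma-like cells that exceeded the maximum of UMIs or genes (118 control, 244 NK cell-depleted) entered no comparison. They held 4295946 and 7769127 UMIs, so that a count of 0 allows 0.698 and 0.386 CPM, and 8 of the 9 genes were above that limit in both libraries. The counts (control, then NK cell-depleted) were 26 and 53 UMIs for *Stat2*, 98 and 214 for *Stat3*, 10 and 25 for *Stat5a*, 65 and 159 for *Stat5b*, and 85 and 166 for *Stat6*. For the inhibitors they were 30 and 48 UMIs for *Socs1*, 115 and 245 for *Socs2*, and 36 and 71 for *Socs3*. The levels of each gene lay close together in both libraries, for example 26.8 and 31.5 CPM for *Socs2*. Both libraries had received a spike of parental melanoma cells, and spiked cells were not told apart from cells of the tumors. *Stat4* had 1 and 0 UMIs.

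Some genes differed between the libraries in opposite directions in different cells. Whether these effects differ between the cells was not tested, since each group was 1 library. The log2 ratio of the control over the NK cell-depleted library for *Stat3* was 0.35 in T-like cells but −0.65 in migratory DC-like, −0.34 in monocyte/macrophage-like and −0.31 in neutrophil-like cells. For *Socs2* it was 1.03 in monocyte/macrophage-like cells and −0.67 in T-like cells. For *Socs1* it was 2.25 in monocyte/macrophage-like cluster 4 and −0.92 in cluster 0.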

How the results depend on the processing

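Of the counts recomputed under the alternatives, 58 stayed within 1.5 times the main count and 9 moved. The number of members lower in control monocyte/macrophage-like cells, 4 as reported, was 2 with finer clusters, with cells named one by one, with every cell thinned to 2000 UMIs and with the median of all genes set to 0, and 1 with every cluster given the same weight. The number lower in neutrophil-like cells, 1 as reported, was 0 with cells named one by one, without cells that carried 3 markers of a second class, with thinned cells and with equal cluster weights. In monocyte/macrophage-like cells the direction turned for *Stat6* when thinned (log2 ratio 0.0073) and, with equal cluster weights, for *Stat2* (0.21), *Stat5b* (0.026) and *Stat5a* (0.16, within counting error as reported). The ratio of *Socs1*, within counting error as reported, was −0.25 (log2) without cells that carried markers of a second class. Reweighting changes only how much each cluster counts. The cause of the other changes was not tested. Over 14 alternatives the log2 ratio in monocyte/macrophage-like cells ran from 0.25 to 0.37 for *Socs3*, from 0.66 to 1.15 for *Socs2*, from 0.52 to 0.97 for *Stat4* and from −0.36 to −0.20 for *Stat3*, each with its direction kept. The removal of cells with a UMI of an NK marker, of the 5 richest cells in T-like cells, DC and single clusters, and the UMI minimum for ranked classes were added after the data were seen. No paired analysis was possible because each group was 1 library. With 1 library per group, differences between hosts, tumors or runs and the depletion cannot be told apart, and members with few UMIs in small classes have wide intervals.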
